A study of Homo sapiens with 6 samples.

Results

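The genes described here are receptors, and the G protein subunits below them, that place B cells within lymphoid tissue. They were taken by symbol from a fixed list of 9 genes (GPR183, CXCR4, CXCR5, CCR7, CCR6, S1PR1, P2RY8, GNA13 and GNAI2), and 7 of the 9 have values among the 18278 genes of the table. CCR6 and P2RY8 were not analysed here. RNA came from 3 samples of Toledo cells grown for 6 days with 5 uM TP-064, which inhibits CARM1, and from 3 samples grown for the same time with DMSO. Toledo is an established human line from a diffuse large B cell lymphoma, grown in suspension without tissue, stroma or other cells, so that levels of receptor mRNA were measured and position was not. CARM1 is an arginine methyltransferase of histones and coactivators, and the study concerned its inhibition in lymphomas with mutated CREBBP or EP300.

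B cells find their place by reading gradients through receptors coupled to inhibitory G proteins. CXCR5 reads CXCL13 and draws cells into the follicle, CCR7 reads CCL19 and CCL21 and draws them to the T cell zone, and GPR183, also called EBI2, reads oxysterols and holds activated cells at the outer follicle. In germinal centres CXCR4 takes cells to the dark zone, S1PR1 directs exit from tissue into blood and lymph, and P2RY8 acts through the G protein subunit encoded by GNA13 to restrain migration and growth. GPR183 is low in germinal centre B cells, where the repressor BCL6 acts on it, and GNA13 and P2RY8 are recurrently mutated in germinal centre lymphomas.

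GPR183 had the largest change among the measured members, a rise of about 7.16-fold, with a smaller rise in CXCR4, falls in CCR7 and GNA13, and no call for CXCR5, S1PR1 or GNAI2. The 250 bases before the start of 3 of the 4 members that changed are printed here because they differ in composition. They are the RefSeq entries of GRCh38.p14, each 5′ to 3′ on the strand of its gene, and where a gene has several starts the one farthest upstream is shown. CCR7 has none printed. GPR183 is read from chr13:99307400-99307649, CXCR4 from chr2:136118150-136118399 and GNA13 from chr17:65056741-65056990, all on the minus strand. Capitals mark matches on either strand to TATAAA or GGGCGG.
GPR183: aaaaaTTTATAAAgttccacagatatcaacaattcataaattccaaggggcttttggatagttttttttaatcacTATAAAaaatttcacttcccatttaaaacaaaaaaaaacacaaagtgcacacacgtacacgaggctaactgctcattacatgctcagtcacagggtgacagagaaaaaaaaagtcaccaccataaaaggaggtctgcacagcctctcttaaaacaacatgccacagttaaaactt
CXCR4: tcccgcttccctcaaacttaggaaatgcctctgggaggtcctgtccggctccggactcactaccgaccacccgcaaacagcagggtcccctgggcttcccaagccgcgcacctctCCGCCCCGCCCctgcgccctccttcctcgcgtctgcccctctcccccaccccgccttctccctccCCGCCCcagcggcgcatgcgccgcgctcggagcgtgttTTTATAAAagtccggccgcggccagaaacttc
GNA13: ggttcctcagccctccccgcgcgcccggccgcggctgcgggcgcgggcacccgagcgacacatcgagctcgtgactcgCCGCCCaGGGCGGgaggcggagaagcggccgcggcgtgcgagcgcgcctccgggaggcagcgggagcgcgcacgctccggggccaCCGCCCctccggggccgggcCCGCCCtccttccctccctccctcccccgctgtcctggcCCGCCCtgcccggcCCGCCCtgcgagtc
The GPR183 stretch had 34.4% G and C and 2 CpG pairs, and 4.82% of the 35116 promoter entries in the table had a lower share of G and C. The CXCR4 stretch had 68.0% G and C and 24 CpG pairs, and the GNA13 stretch 82.0% and 39, against a median of 58% and 11 over all entries. In GPR183 TATAAA, the sequence of the TATA box, occurred at 243 and 175 bases before the start, and at the first of these it overlapped the match on the other strand. In CXCR4 it occurred at 30 bases before the start, likewise with an overlapping match, beside 3 matches to GGGCGG, a GC box. In GNA13 there were 6 matches to GGGCGG and none to TATAAA. Over all entries TATAAA was found in 10.7% and GGGCGG in 42.6%. The same windows were searched on both strands for CCAAT (32.0% of all entries), the cyclic AMP response half-site TGACG (21.2%), the octamer ATGCAAAT (1.63%) and the FOXO core GTAAACA (2.98%), and these 3 stretches held no match to these 4 motifs. The windows of the other starts of CXCR4 and GNA13 differed. Those of CXCR4 had 55.6% and 51.6% G and C and no TATAAA. The first of them held CCAAT and TGACG, and the second GGGCGG. That of GNA13 had 66% G and C, a match to CCAAT and none to GGGCGG. Composition and matches thus depend on the start used. All these matches describe the letters of the windows.

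The libraries held 41354131 to 48360867 recovered reads over the listed genes. TP-064 replicate 3 stood somewhat apart, with a correlation of log values of 0.989 and 0.990 to the other TP-064 libraries, where the other pair reached 0.995 and the DMSO pairs 0.995. Without it 4 members still passed the test, with log2 fold changes of 2.86 for GPR183, 0.23 for CXCR4, -0.84 for CCR7 and -0.33 for GNA13. In that fit 10143 of all 16048 tested genes were called. All 6 of the B cell markers used (such as MS4A1, CD79A and PAX5) had values, summing to 99714 to 106253 normalized read counts per TP-064 library and 101586 to 103299 per DMSO library. Of the markers of other cells, 2 of 6 for T cells, 1 of 4 for NK cells, 3 of 5 for myeloid cells and 3 of 6 for epithelial or stromal cells had values. Their sums per TP-064 library lay at 31.7 to 36.6, 15.2 to 19.8, 71.2 to 99.5 and 148 to 164 in that order, and per DMSO library at 31.1 to 48.7, 25.8 to 30.1, 34.6 to 65.6 and 301 to 336. The myeloid sum was thus higher and the NK and epithelial or stromal sums lower under TP-064, and their part in the results was not tested. The labels do not say whether replicates were separate cultures, so p-values measure only how these samples varied, and that variation may be technical. In such bulk RNA, fewer cells that express a gene and less of its RNA per cell cannot be told apart.

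GPR183 encodes a receptor for dihydroxylated cholesterols. Its normalized read counts (gene counts divided by a size factor per library) were 658, 804 and 692 in the TP-064 libraries and 88.2, 108 and 102 in the DMSO libraries. Every TP-064 library lay above every DMSO library, with a gap far wider than either group's spread. The means were 718 ± 76.5 under TP-064 and 99.4 ± 10.2 under DMSO (SD, n = 3 each). The log2 fold change was 2.84 (SE 0.10, limma adjusted p = 3.08e-12 over all 16048 genes tested), with a 95% interval of 2.62 to 3.06. Of all genes tested, 64 (0.399%) rose by as much or more on this scale. The log2 values carry a pseudocount of 1, and at these counts its choice moved the change little, to 2.85 with 0.5 and 2.79 with 5.

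CXCR4 encodes the receptor of CXCL12. Its normalized read counts were 43763, 45795 and 44129 under TP-064 and 37297, 37771 and 39323 under DMSO. The groups did not overlap, and the difference was small beside the level. CXCR4 rose by 0.22 in log2 units (SE 0.04, limma adjusted p = 6.57e-05), and by 0.35 when libraries were scaled to their size alone. CCR7, which guides cells to the T cell zone, had 2151, 2530 and 2155 normalized read counts under TP-064 against 3980, 4435 and 4121 under DMSO. All 3 TP-064 libraries were well below the lowest DMSO library. CCR7 fell to 2279 ± 218 in TP-064 cells, against 4179 ± 233 in DMSO cells (SD, n = 3 each), with a log2 fold change at -0.88 (SE 0.06, limma adjusted p = 4.82e-09). Falls as large or larger were seen in 1316 tested genes (8.20%).

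CXCR5, the receptor of the follicle ligand CXCL13, was near the lower end of the measurement. It had 10.5, 17.8 and 20.3 normalized read counts under TP-064 and 18.7, 28.8 and 23.8 under DMSO, so that the groups overlapped. In recovered reads these were 12, 18 and 20 under TP-064 and 18, 29 and 22 under DMSO. For the lowest library, TP-064 replicate 1, the exact 95% Poisson interval was 6.201 to 21.0 reads. The 18 reads of DMSO replicate 1 lay within it, and 22 and 29 lay above it. These reads are not scaled for depth, and the size factors of the TP-064 and DMSO replicate 1 libraries were 1.14 and 0.963. The interval therefore cannot place the scaled values, and it covers counting error only. The log2 fold change was -0.55 (SE 0.31, limma adjusted p = 0.136), with a 95% interval of -1.22 to 0.12, so that a fall of more than 2-fold and a small rise both lie within it. Of the 4431 exon bases of CXCR5 in the annotation, 3925 are also exon of BCL9L, a gene on the opposite strand. No source used here says whether the counting used strand, and without it such reads cannot be told apart or may be discarded, so the level of CXCR5 is uncertain. BCL9L rose, with 226, 187 and 207 normalized read counts under TP-064 against 142, 164 and 137 under DMSO (log2 fold change 0.48, SE 0.11, limma adjusted p = 0.00141). CXCR5 reads came to 4.63%, 9.52% and 9.80% of BCL9L reads in the TP-064 libraries and 13.1%, 17.6% and 17.3% in the DMSO libraries. The part of BCL9L in the CXCR5 values was not tested.

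**Figure D1:**
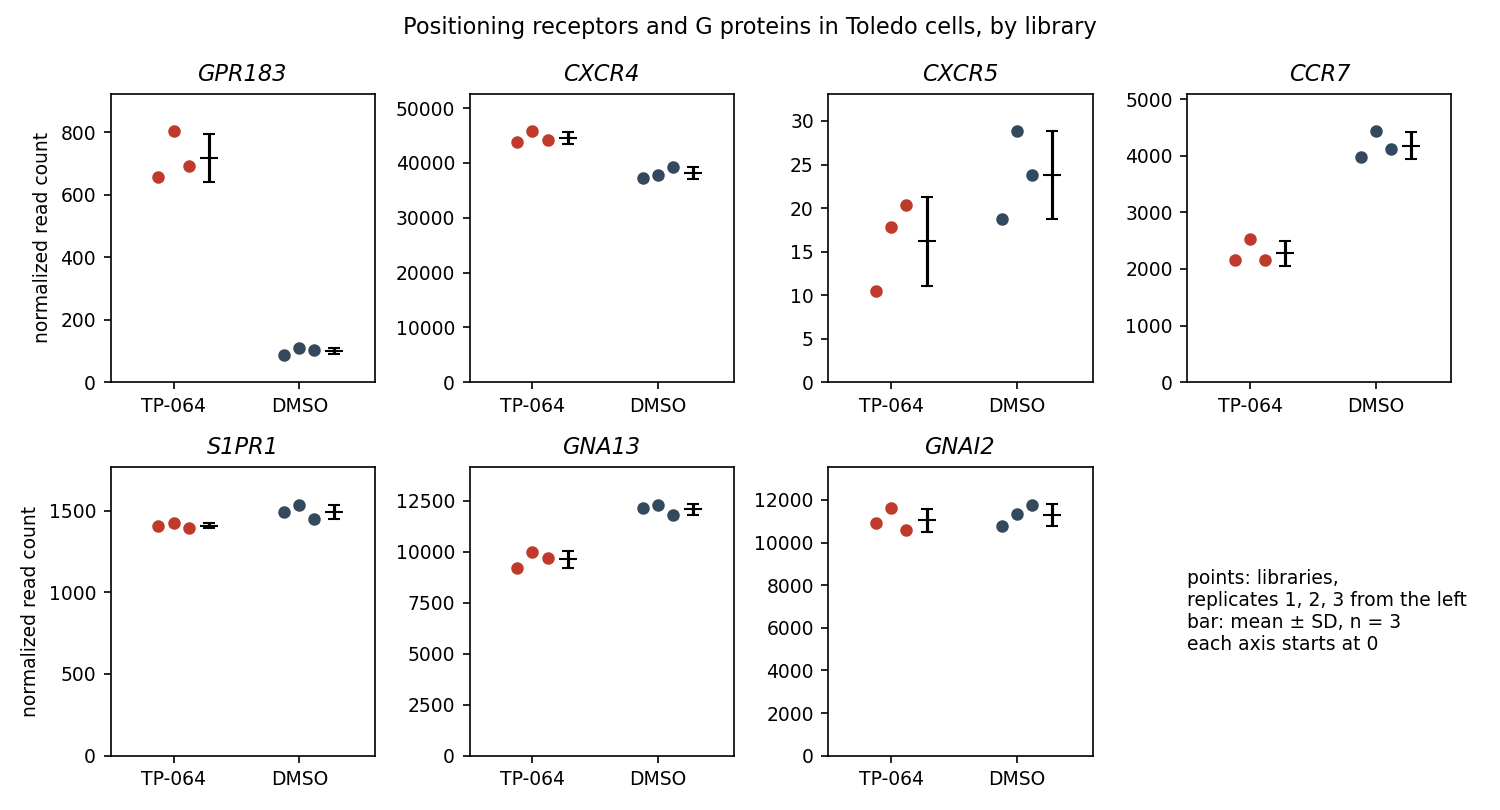
Normalized read counts of the 7 measured members in each library, with TP-064 left of DMSO in every panel and each axis starting at 0. Points are libraries and bars are the mean ± SD of 3; the GPR183 groups lie far apart, at 658 to 804 under TP-064 and 88.2 to 108 under DMSO, while those of CXCR5 and GNAI2 overlap.

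S1PR1, the sphingosine 1-phosphate receptor that directs exit from lymphoid tissue, had 1405, 1426 and 1392 normalized read counts under TP-064 and 1490, 1536 and 1449 under DMSO. The TP-064 libraries were all below the DMSO libraries, by a gap smaller than the DMSO standard deviation. It did not pass the test, with -0.08 as its log2 fold change (SE 0.04, limma adjusted p = 0.105, 95% interval -0.18 to 0.01), and its sign turned with scaling to library size alone, to 0.04.

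The G protein subunits were abundant and moved unequally. GNA13 encodes the alpha subunit through which P2RY8 and S1PR2 signal. Its normalized read counts were 9190, 9983 and 9678 under TP-064 and 12120, 12301 and 11796 under DMSO, with no overlap. GNA13 fell by 0.33 on the log2 scale (SE 0.04, limma adjusted p = 1.61e-06), or by 0.21 with scaling to library size alone. GNAI2 encodes the inhibitory alpha subunit used by chemokine receptors in lymphocytes. It had 10899.6, 11632 and 10587 normalized read counts under TP-064 and 10756, 11327 and 11780 under DMSO, and the groups overlapped over most of their range. Its log2 fold change was -0.03 (SE 0.04, limma adjusted p = 0.528, 95% interval -0.12 to 0.06). With scaling to library size alone it turned to 0.09 and passed the test (adjusted p = 0.0341). GNAI2 has 2 numbered copies in the annotation that could share reads.

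In all, 4 of the 7 tested members were called at an adjusted p under 0.05, 2 higher and 2 lower, where 65.1% of all tested genes were called, 31.9% as higher and 33.3% as lower. The members' share of calls, 57.1%, was thus close to the background. Groups did not overlap for 5 members, 2 of them higher and 3 lower, against 69.1% of all genes, 33.9% higher and 35.2% lower. The median log2 fold change was -0.08 over the members and 0.01 over all genes tested. Among the members, GPR183 alone was called with a change of at least 2-fold, as were 13.1% of all genes tested. Higher calls of that size made up 6.51% of all genes tested.

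**Figure D2:**
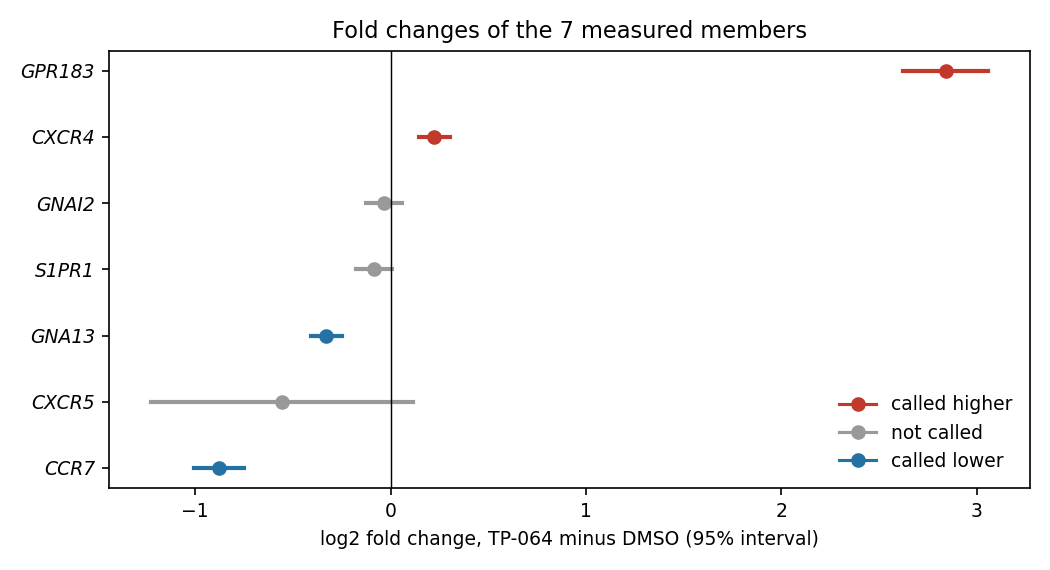
Log2 fold changes (TP-064 minus DMSO) of the 7 measured members with 95% intervals from limma. GPR183 stands at 2.84 and CCR7 at -0.88, and the intervals of CXCR5, S1PR1 and GNAI2 include 0.

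Levels were compared between members per kilobase of annotated exon. After TP-064 the order was CXCR4 at 20037, GNA13 at 1884, GNAI2 at 1443, CCR7 at 909, GPR183 at 422, S1PR1 at 269.5 and CXCR5 at 3.66 normalized read counts per kb. After DMSO it was CXCR4 at 17145, GNA13 at 2365, CCR7 at 1666, GNAI2 at 1476, S1PR1 at 286, GPR183 at 58.5 and CXCR5 at 5.36. The ranges of neighbours in either order did not overlap. On this scale GPR183 and S1PR1 changed places, as did CCR7 and GNAI2. The order depends on the length used, which pools all annotated exons of a gene and may differ from the transcripts present. Before division by length neither pair changed places. GPR183 had a mean of 718 against 1408 for S1PR1 under TP-064, and CCR7 had 4179 against 11288 for GNAI2 under DMSO. The level of GPR183 per kb exceeded that of 71.0% of tested genes under TP-064 and of 35.7% under DMSO. CXCR4 exceeded 99.5% of tested genes under TP-064 and 99.3% under DMSO, and CXCR5 4.22% under TP-064 and 7.51% under DMSO.

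**Figure D3:**
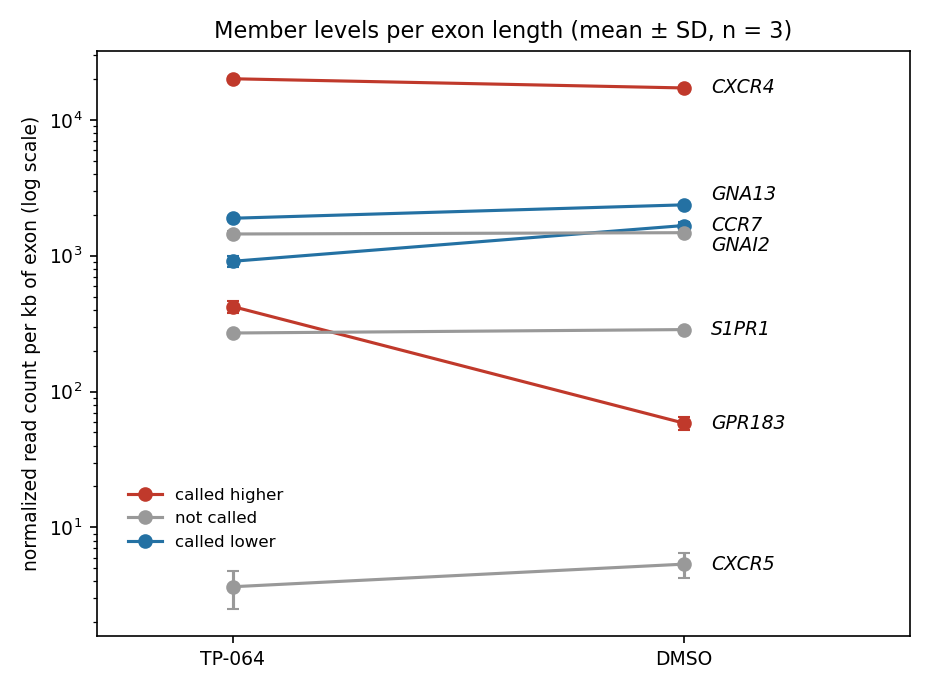
Mean normalized read count per kb of exon (log axis, bars SD of 3) for each member, TP-064 on the left and DMSO on the right. The line of GPR183, at 422 under TP-064 and 58.5 under DMSO, crosses that of S1PR1, at 269.5 and 286 in the same order.

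Ratios of reads within a library do not depend on how libraries are scaled. GPR183 reads came to 0.306, 0.318 and 0.321 of CCR7 reads in the TP-064 libraries and 0.0222, 0.0244 and 0.0247 in the DMSO libraries. The ratio was higher in every TP-064 library, by 3.73 on the log2 scale. CXCR4 had 20.3, 18.1 and 20.5 reads per CCR7 read under TP-064 and 9.37, 8.52 and 9.54 under DMSO, a log2 difference of 1.10. GNA13 had 0.843, 0.858 and 0.914 reads per GNAI2 read under TP-064 and 1.13, 1.09 and 1.001 under DMSO, a log2 difference of -0.30. None of these 3 ratios overlapped between groups. They use the same reads as the fold changes given above, so they add no separate support. Each of the 6 ratios computed, those with UBAC2 and S1PR4 included, gave an exact two-sided permutation p of 0.1, the smallest that 3 against 3 libraries allow, so adjustment over them leaves 0.1.

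GPR183 lies on chromosome 13 from 99294530 to 99307405 on the minus strand of GRCh38, within the span of UBAC2, a gene on the plus strand that runs from 99200774 to 99386434. No exon bases of the 2 genes overlap. GPR18, a receptor of lymphocytes on the minus strand from 99254714 to 99261744, lies within the same span at 32786 bases from GPR183. GPR18 had 2633, 2725 and 2672 normalized read counts under TP-064 and 1244, 1369.9 and 1358 under DMSO, and rose by 1.02 (SE 0.05, limma adjusted p = 4.26e-11). UBAC2 had 2617, 2712 and 2543 under TP-064 and 2175, 2096 and 2177 under DMSO, and rose by 0.29 (SE 0.04, limma adjusted p = 1.46e-05). GPR183 reads came to 0.252, 0.296 and 0.272 of UBAC2 reads under TP-064 and 0.0406, 0.0517 and 0.0467 under DMSO. Of 5 tested neighbours within 100000 bases of GPR183, these 2 were called and 3 were not, against 65.1% called of all tested genes. UBAC2-AS1 had a log2 fold change at 0.15 (limma adjusted p = 0.328), RN7SKP9 at 0.27 (limma adjusted p = 0.303) and HMGB3P4 at 0.78 (limma adjusted p = 0.0510). The other members lie on chromosome 2 (CXCR4, 136114349 to 136118165), chromosome 11 (CXCR5, 118883766 to 118897799), chromosome 17 (CCR7, 40553769 to 40565472, and GNA13, 65010715 to 65056839), chromosome 1 (S1PR1, 101236865 to 101243713) and chromosome 3 (GNAI2, 50226292 to 50259355).

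On the ligand side few genes could be described. Of 4 enzymes that make or break down the GPR183 ligand, HSD3B7, which inactivates it, was the 1 with values. It had 10.5, 18.8 and 20.3 normalized read counts under TP-064 and 26.0, 24.9 and 47.6 under DMSO. It fell by 0.93 (SE 0.33, limma adjusted p = 0.0205), a call lost without TP-064 replicate 1 or without DMSO replicate 3 (adjusted p up to 0.133). The 5 chemokine ligands of the member receptors (CXCL12, CXCL13, CCL19, CCL21 and CCL20) were not analysed here.

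Of 19 other chemokine receptors listed, 8 had values and 5 were tested, of which 3 rose, 0 fell and 2 were not called, against 31.9% of all genes higher and 33.3% lower, with a median of 1.30. Genes with low counts were tested only if their mean reached 10, so these 5 do not stand for the list, and a filter at 1 CPM in 3 samples left 1 higher call. CCRL2, a receptor that binds chemerin, had 122, 131 and 122 normalized read counts under TP-064 and 47.8, 41.8 and 40.0 under DMSO, a rise of 1.51 (SE 0.15, limma adjusted p = 3.04e-07). CCR9, the receptor of gut homing, rose to 22.7, 34.6 and 20.3 normalized read counts under TP-064, against 1.04, 2.98 and 2.16 under DMSO. With so few reads its log2 fold change, 3.15 (SE 0.44, limma adjusted p = 1.35e-05), ran from 2.11 to 3.65 over the alternatives. CCR9 reached the mean of 10 only through its TP-064 libraries, with means of 25.9 under TP-064 and 2.06 under DMSO. Its call, its place among the 3 that rose and its part in the median of 1.30 therefore give no support of their own. CCR1, a receptor of CCL3 and CCL5 named after its value was seen, rose by 1.30 (SE 0.29, limma adjusted p = 0.00105). It too had few reads, with means of 33.4 under TP-064 and 13.0 under DMSO.

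Of 14 genes of sphingosine 1-phosphate (S1P) receptors, S1P turnover and confinement to the germinal centre, 12 were tested, with 6 higher, 3 lower and 3 not called, at a median of 0.27. That is 75% called, where 65.1% of all tested genes were, at a median of 0.01. Higher calls made up 50% and lower calls 25%, against 31.9% and 33.3% of all tested genes. S1PR4, a receptor for S1P in leukocytes, had 12243, 13169 and 11306 normalized read counts under TP-064 and 7609, 7513 and 8200 under DMSO, and rose by 0.65 (SE 0.05, limma adjusted p = 2.24e-08). Reads of S1PR4 per read of S1PR1 were 8.72, 9.23 and 8.12 under TP-064 and 5.11, 4.89 and 5.66 under DMSO, without overlap. SGPL1, the lyase that degrades S1P, rose by 0.30 (SE 0.04, limma adjusted p = 4.98e-06). CD69, which draws S1PR1 from the cell surface, had 1204, 1459 and 1384 normalized read counts under TP-064 and 1958, 2057 and 2046 under DMSO, and fell by 0.59 (SE 0.06, limma adjusted p = 5.62e-07). ARHGEF1, an exchange factor that acts below GNA13, fell by 0.15 (SE 0.04, limma adjusted p = 0.00622). S1PR2, the receptor that signals through GNA13 in germinal centre cells, was named after its value was seen and fell by 0.39 (SE 0.12, limma adjusted p = 0.00998). ARHGEF1 and S1PR2 were no longer called with scaling to library size alone (adjusted p = 0.526 and 0.0648), which left 1 lower call in the list.

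Of 22 other G protein subunits and chaperones, 16 were tested: 13 fell, 2 rose and 1 was not called, at a median of -0.29, and with scaling to library size alone 10 fell and 3 rose at -0.17. The lower calls made up 81.2% of those tested, and 33.3% of all tested genes were called lower. A filter at 1 CPM in 3 samples left 12 lower calls and 1 higher call. GNG4, among the 13 that fell and named after its value was seen, had means of 8.92 under TP-064 and 24.9 under DMSO. It reached the mean of 10 only through its DMSO libraries. Its call and its place among the 13 therefore give no support of their own. GNB4, a beta subunit, had 463, 443 and 470 normalized read counts under TP-064 and 1189, 1196 and 1154 under DMSO, and fell by 1.36 (SE 0.05, limma adjusted p = 9.29e-12). It shares 1941 exon bases with a listed gene on the opposite strand. GNA11, an alpha subunit of the Gq class, fell by 0.88 (SE 0.06, limma adjusted p = 3.40e-09). GNG7, a gamma subunit, had 5638, 5484 and 5435 normalized read counts under TP-064 and 2486, 2313 and 2536 under DMSO, and rose by 1.175 (SE 0.04, limma adjusted p = 2.20e-12). GNB3, a beta subunit with few reads that shares 549 exon bases with CDCA3 on the opposite strand, rose by 1.19 (SE 0.32, limma adjusted p = 0.00482), with means of 34.0 under TP-064 and 15.5 under DMSO.

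Of 15 genes that turn receptor signals off, 12 were tested, with 8 lower, 2 higher and 2 not called, at a median of -0.40 (7 lower and 3 higher at -0.27 with library size scaling). The lower calls made up 66.7% of those tested, against 33.3% of all tested genes. RGS1, a GTPase activator that dampens chemokine responses in B cells, had 885, 1091 and 888 normalized read counts under TP-064 and 1807, 1957 and 1836 under DMSO, and fell by 0.97 (SE 0.07, limma adjusted p = 1.05e-08). RGS19 fell by 0.61 (SE 0.06, limma adjusted p = 2.18e-07). RGS16, of the same family, moved the other way, with 26149.5, 28042 and 25695 normalized read counts under TP-064 and 16601, 18021 and 17282 under DMSO. It rose by 0.62 (SE 0.04, limma adjusted p = 4.30e-09), and RGS14 rose by 0.27 (SE 0.06, limma adjusted p = 0.00115).

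The 5 listed regulators, 4 transcription factors and 1 coactivator with known actions on member genes, were each called, 4 lower and 1 higher, at a median of -0.46. Of all tested genes 65.1% were called, 33.3% as lower, and other regulators of the members were not listed. KLF2, which activates S1PR1 in lymphocytes, had 316, 323 and 237 normalized read counts under TP-064 and 736, 747 and 719 under DMSO, and fell by 1.34 (SE 0.10, limma adjusted p = 1.30e-08). It has 4 numbered copies in the annotation. POU2F2, or Oct-2, which acts on CXCR5, fell by 0.80 (SE 0.07, limma adjusted p = 1.97e-07), and its coactivator POU2AF1 rose by 0.48 (SE 0.05, limma adjusted p = 2.95e-07). FOXO1, which acts on CXCR4 and KLF2, and BCL6, the repressor of GPR183, were named after their values were seen. FOXO1 fell by 0.46 (SE 0.04, limma adjusted p = 2.30e-07). BCL6 had 617, 652 and 679 normalized read counts under TP-064 and 786, 840.1 and 779 under DMSO, and fell by 0.30 (SE 0.06, limma adjusted p = 0.000325). The part of these regulators in the values of the members was not tested.

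**Figure D4:**
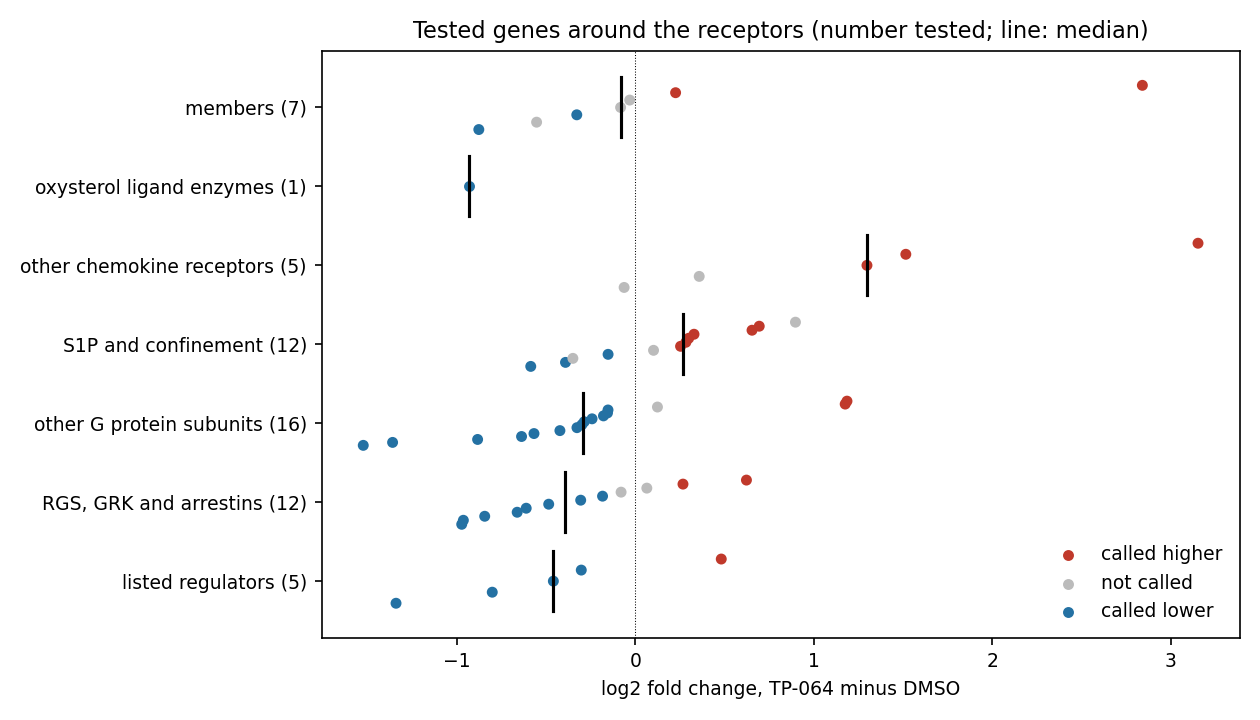
Log2 fold changes (TP-064 minus DMSO) of the tested genes in each group, coloured by call, with the median of the group as a line and the number tested in parentheses. G protein subunits lie mostly left of 0, with a median of -0.29, and GPR183 and CCR9 lie farthest to the right, at 2.84 and 3.15.

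Genes whose pattern over the 6 libraries lay closest to that of GPR183 were found among 11098 genes with a mean of at least 100, by Euclidean distance between log2 values centred on each gene's mean. The nearest were TMEM273 at a distance of 0.19, LILRA4 at 0.24, TEC at 0.33, LINC01225 at 0.33 and BIK at 0.34. TMEM273 had 597, 634 and 625 normalized read counts under TP-064 and 75.8, 98.4 and 83.3 under DMSO, a log2 fold change of 2.84. LILRA4, an immunoglobulin-like receptor, had a change of 2.69, TEC, a kinase of the family of BTK, 2.93, LINC01225 2.78, and BIK, a pro-apoptotic BH3 protein, 2.81. The distance is set mainly by the size of the difference between the groups and says nothing of shared control.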

How the data were processed

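The build hg38 and the tools DESeq 1.18.0, HTSeq 0.6.0 and TopHat2 2.0.10 are named in the submitters' processing notes. Per the labels' protocols the libraries were stranded and polyadenylated. The values the authors deposited are a signal, each being a read count over that library's size factor. The sources used here do not give the annotation release, strand setting or row filter. Every value was a whole multiple of its column's step within 0.001, so 100% came out as whole reads; in replicate 2 of each group the size factor lies near 1 (1.01), so the recovery of those reads rests on the decimals and on the recomputed factor.

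limma 3.58.1 (R 4.3.3, trend option) was fitted to log2(normalized read count + 1) for genes with a mean of at least 10 (2230 left out), with 4 residual degrees of freedom and no block. Two-sided p-values were adjusted over all tested genes (Benjamini-Hochberg), with calls under 0.05. Count tests, as alternatives, used edgeR 4.0.16 and DESeq2 1.42.0. The procedure was tested on simulated counts in which few genes changed and none of those had low counts. That setting differs from these data, so it does not vouch for the calls made here. Symbols, exons and positions come from GENCODE 29, matched for 18214 of 18278 genes. Members and lists were chosen with earlier results of these data known. One marker and 1 gene list are not reported here. Up to 2 called genes per list and direction were named, by smallest p, and the 5 nearest to GPR183.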

Additional observations from a re-analysis of the deposited data

How the results depend on the processing

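Each member was recomputed under up to 18 alternatives, and GPR183, CXCR4, CCR7 and GNA13 kept their direction and their call under all of them. Their log2 fold changes ran from 2.76 to 2.96 for GPR183, 0.21 to 0.35 for CXCR4, -0.95 to -0.75 for CCR7 and -0.36 to -0.21 for GNA13. The alternatives were pseudocounts, filters, scalings, edgeR, DESeq2, limma-voom, a replicate block, each library left out and a threshold of 0.01. With libraries scaled by size only, the median over all genes stood at 0.13, against 0.01 under the deposited scaling, and 61.5% of calls were higher, against 48.9%. Under it S1PR1 turned to 0.0396 and GNAI2 to 0.0906, and 5 members were called, 3 of them higher. Of all 16048 tested genes 10811 were called under that scaling, 6653 of them higher. CXCR5 was not called in any of these fits and was removed by the filter at 1 CPM in 3 samples, so it has no value there. Same-numbered libraries did not visibly deviate together (correlations of -0.0859, 0.0659 and -0.0793). Such low correlations cannot tell whether same-numbered libraries were grown or prepared together. The replicate block gave 10491 calls, against 10449 without it, and 4 members called, with GPR183 at 2.84. Of 252 counts for the gene lists, 7 moved by over 1.5 times, 4 of them that of HSD3B7 alone. Depth limits CXCR5, CCR9, CCR1, GNB3, GNG4 and HSD3B7, which had few reads.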

Other observations

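Within 100000 bases of the other members 31 neighbouring genes were tested, of which 10 were higher, 8 lower and 13 not called. The share called, 58.1%, was below the 65.1% of all tested genes. SEMA3B, a secreted semaphorin at 8203 bases from GNAI2, had 121, 106 and 88.4 normalized read counts under TP-064 and 27.0, 14.9 and 22.7 under DMSO (log2 fold change 2.26, SE 0.23, limma adjusted p = 4.27e-07). IGFBP4, a binding protein of insulin-like growth factors at 96038 bases from CCR7, had 338, 334 and 291 under TP-064 and 689, 729 and 723 under DMSO (log2 fold change -1.15, SE 0.07, limma adjusted p = 1.94e-09). RGS9, a GTPase activator at 43973 bases from GNA13, had 63.8, 46.5 and 50.8 under TP-064 and 129, 125 and 96.2 under DMSO (log2 fold change -1.11, SE 0.17, limma adjusted p = 3.65e-05). SEMA3F-AS1, an antisense gene near GNAI2, stood at 85.3 normalized read counts in TP-064 replicate 3, at 1.75 and 2.97 in the other TP-064 libraries and at 4.33 to 5.96 in the DMSO libraries. These 4 genes were named after their values were seen.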
